A study of Homo sapiens with 16 samples.

Results

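The step from immortalized to transformed fibroblasts was examined at atmospheric oxygen, as the difference between 2 libraries of each stage, which are 4 of the 16 libraries of the series. Immortalized cells (BJ hTERT+) are human BJ foreskin fibroblasts that carry the catalytic subunit of telomerase, and transformed cells (BJ hTERT+ SV40+) carry the SV40 Large-T oncogene in addition, so that hTERT is present in both. Both lines grew in the same serum-containing medium for 6 passages, and the duplicate libraries come from plates kept in parallel, so that p-values measure the spread between plates. Each stage is 1 line, and the arrival of Large-T cannot be told apart from any other difference between these 2 lines. Poly-A RNA was sequenced, and expression is given as TPM, the share of each transcript among all transcripts of a library after correction for transcript length, so that every library adds up to the same total. TPM keeps no record of the number of reads, so the depth behind each value is unknown. Of 19356 protein-coding genes, the 12387 whose mean reached 1 TPM in either group were compared on the log2(TPM + 0.5) scale, which understates the change of genes with low levels.

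Large-T binds the retinoblastoma family of pocket proteins and the tumour suppressor p53. Pocket proteins hold E2F transcription factors inactive in resting cells, and E2F factors drive the genes of DNA replication, while a second set of genes, expressed later in the cell cycle, is controlled by the complex of MYBL2, FOXM1 and the LIN proteins. p53 activates genes that stop the cell cycle, repair DNA or start apoptosis. Fibroblasts, in turn, are known for the extracellular matrix they secrete and for the cytokines they release under stress.

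In what follows, the TPM of replicates a and b are given for each group, ± is the standard error of the log2 fold change of transformed against immortalized cells, and adjusted p-values are from limma with Benjamini-Hochberg adjustment. A gene was called when its adjusted p was under 0.01 and its change exceeded 2-fold. At this threshold 3012 genes changed (24.3% of those tested), of which 1631 rose (13.2%) and 1381 fell (11.1%). All counts of gene groups in air are to be read against these shares. Over all genes the log2 fold change had a median of 0.22, and the balance of rises and falls depended on how the libraries were scaled. After rescaling by median ratios, which moved that median to -0.01, 1066 genes rose (8.59% of 12417) and 1774 fell (14.3%), so that rises made up 37.5% of the calls in place of 54.2%, and after quantile normalization they made up 47.3%. Of the 1631 rises 1065 were called under all 3 scalings, as were 1378 of the 1381 falls, and no gene was called in opposite directions. For gene groups, the median after median-ratio rescaling is therefore given beside the first one.

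The 2 replicates of a group differed more than 2-fold for 3.14% of genes in immortalized and 1.91% in transformed cells, and for 10.6% in metastasizing cells at 3% oxygen, which enter the fit only through the shared spread. Fitted on the 4 libraries compared alone, 2886 genes were called. Of the genes named below as changed, 18 lost their call when 1 of the 4 libraries was left out, namely BBC3, BCL2A1, CCND3, CCNG1, CSF3, E2F2, E2F5, HMGA2, KIT, LSS, MMP11, MMP16, PHLDA3, PLK2, PLOD2, RBL1, RRM2B and SREBF1. Mitochondrially encoded transcripts took 1.16% to 2.85% of the TPM, and 88.3% to 89.4% of the TPM belonged to transcripts matched to a gene. TERT, whose coding sequence is the transgene, was present in all 4 libraries and fell, from 115 and 193 TPM in immortalized to 35.4 and 31.6 TPM in transformed cells (log2 fold change -2.14 ± 0.36, adjusted p = 0.000481). In primary cells at the same oxygen level it was listed at 0 and 0 TPM. The mRNA of HRAS, mutated only in the later metastasizing stage, was at 32.7 and 36.5 TPM in immortalized and 119.8 and 99.0 TPM in transformed cells and was not called (log2 fold change 1.64 ± 0.55, adjusted p = 0.025), although it was in the fit of the 4 libraries alone.

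Fibroblast markers marked both groups, but at different levels. The summed TPM of 12 markers was 20257 and 19466 in immortalized and 6714 and 6555 in transformed cells, where 8 of the 12 fell and 0 rose. VIM, COL1A1, COL3A1 and P4HB were the 4 markers not called, and P4HB, for example, was at 1457 and 1219 TPM in immortalized and 981 and 985 TPM in transformed cells. Endothelial, blood, melanocyte and muscle markers summed to at most 4.39 TPM in any library, with SOX10, TYR and CD3E at 0 in all 4. Of the 5 endothelial markers 4 were matched to a gene, and PECAM1 was not, so its level is unknown. Among 8 epithelial markers, KRT18 made up most of the sum of 299.6 to 353 TPM and EPCAM was below 1 TPM throughout. Of the 3 that were tested, KRT19 rose, from 0.804 and 0.0637 to 11.2 and 11.5 TPM (log2 fold change 3.79 ± 0.52, adjusted p = 0.000104), KRT8 fell, from 50.7 and 52.7 to 8.93 and 9.20 TPM (log2 fold change -2.45 ± 0.37, adjusted p = 0.000208), and KRT18 was not called. In primary cells in air KRT19 was at 161 and 203 TPM. The part of these markers in the results below was not tested. In bulk RNA, fewer cells of a type and less RNA per cell cannot be told apart.

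Of the mRNAs of the 3 pocket proteins, 1 was called. RB1 was at 35.9 and 35.2 TPM in immortalized and 52.0 and 50.5 TPM in transformed cells (log2 fold change 0.52 ± 0.11, adjusted p = 0.00194) and did not pass the threshold of size. RBL2, the pocket protein p130, was at 30.8 and 25.8 TPM in immortalized and 25.2 and 27.7 TPM in transformed cells (log2 fold change -0.09 ± 0.20, adjusted p = 0.711). RBL1, the pocket protein p107 and itself an E2F target, rose from 8.77 and 11.1 TPM in immortalized to 22.7 and 19.9 TPM in transformed cells (log2 fold change 1.07 ± 0.16, adjusted p = 0.000234).

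Around the pocket proteins, 7 of 19 tested genes rose and 1 fell, against 13.2% and 11.1% of all tested genes. The median log2 fold change was 0.68 (0.46 after median-ratio rescaling, under which 4 rose and 1 fell). MYBL2, the transcription factor B-Myb that activates the late cell cycle genes, showed the largest rise of the group, from 19.7 and 25.9 TPM in immortalized to 234 and 241 TPM in transformed cells (log2 fold change 3.37 ± 0.14, adjusted p = 2.90e-08). E2F8, a repressor E2F that peaks in S phase, went from 2.89 and 3.31 TPM in immortalized to 14.4 and 14.8 TPM in transformed cells (log2 fold change 2.07 ± 0.15, adjusted p = 9.27e-07), and E2F1, the classical activator, from 15.4 and 20.8 TPM in immortalized to 53.2 and 53.6 TPM in transformed cells (log2 fold change 1.55 ± 0.15, adjusted p = 8.33e-06). LIN9, a core subunit of the complex that MYBL2 joins, and FOXM1, which drives mitotic genes, rose, with log2 fold changes of 1.54 ± 0.13 and 1.17 ± 0.15. E2F2, a further activator, rose to just past the threshold, with a log2 fold change of 1.02 ± 0.18, and E2F5, which acts with p130 in resting cells, was the single fall, at 5.51 and 3.84 against 1.34 and 2.29 TPM (log2 fold change -1.17 ± 0.29, adjusted p = 0.00525). The other members, E2F3, E2F4, E2F6, E2F7, TFDP1, TFDP2, LIN37, LIN52 and LIN54, had log2 fold changes from -0.75 to 0.78 and were not called. In each of the rising genes named with values both transformed libraries lay above both immortalized libraries. These genes were named because they were called, so this adds no support. MYBL2, E2F1 and RBL1 lie on chromosome 20, where 27.0% of tested genes rose, and the part of this in their changes was not tested.

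In the p53 circuit 17 of 34 tested genes fell and 1 rose, against 11.1% and 13.2% of all genes, and the median log2 fold change was -1.02 (-1.24 after rescaling, with 18 falls and 1 rise). FAS, a death receptor, fell from 62.0 and 59.2 TPM in immortalized to 4.35 and 4.34 TPM in transformed cells (log2 fold change -3.66 ± 0.25, adjusted p = 6.84e-07). SPATA18, which takes part in the removal of damaged mitochondria, was at 14.4 and 14.9 TPM in immortalized and 0.787 and 0.739 TPM in transformed cells (log2 fold change -3.59 ± 0.20, adjusted p = 1.55e-07), and EDA2R, a receptor of the TNF receptor family, at 19.96 and 20.5 TPM in immortalized and 2.27 and 1.61 TPM in transformed cells (log2 fold change -3.10 ± 0.18, adjusted p = 2.28e-07). The RNA-binding protein gene ZMAT3 followed with 25.6 and 24.1 against 3.26 and 2.20 TPM (log2 fold change -2.99 ± 0.16, adjusted p = 1.12e-07). In all 4 genes both transformed libraries lay below both immortalized ones, which adds nothing to the calls by which they were picked.

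CDKN1A (chr6:36644237-36655114 in GRCh37) encodes p21, the inhibitor of cyclin-dependent kinases through which p53 stops the cell cycle. It dropped from 237 and 282 TPM in immortalized to 46.0 and 45.3 TPM in transformed cells (log2 fold change -2.49 ± 0.34, adjusted p = 9.62e-05). RPS27L and CCNG1, expressed at higher levels than most of the list, fell by less, with log2 fold changes of -1.47 ± 0.12 and -1.05 ± 0.09. The repair genes XPC, which recognizes DNA damage, and RRM2B, which supplies nucleotides for repair, fell, with log2 fold changes of -1.42 ± 0.13 and -1.07 ± 0.15. MDM2, the ubiquitin ligase that degrades p53, was at 46.9 and 80.9 TPM in immortalized and 54.2 and 17.4 TPM in transformed cells and was not called (log2 fold change -0.99 ± 0.99, adjusted p = 0.42), with replicates far apart in both groups. GDF15, a stress cytokine, BTG2, which slows proliferation, and TP53INP1, a cofactor of p53, fell, with log2 fold changes of -2.99 ± 0.49, -2.50 ± 0.47 and -1.96 ± 0.18. The other falls, in BBC3, SUSD6, SESN1, PHLDA3 and TNFRSF10B, had log2 fold changes from -1.64 to -1.19. Other members, PLK3, FDXR, SESN2, DDB2, BAX, TP53I3, GADD45A, PPM1D, AEN, TIGAR, PIDD1, MDM4, TRIAP1 and POLH, had log2 fold changes from -0.95 to 0.98 and were not called, and CYFIP2 and TNFRSF10C were below the level tested. PLK2, a kinase of the G1 phase, was the single rise, from 45.8 and 43.7 TPM in immortalized to 129 and 160.4 TPM in transformed cells (log2 fold change 1.67 ± 0.34, adjusted p = 0.00146).

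In the group of G1 cyclins, kinases and inhibitors, 6 of 14 tested genes rose and 2 fell, against 13.2% and 11.1% of all tested genes. The median log2 fold change was 0.92 (0.70 after median-ratio rescaling, with 4 rises and 2 falls). The inhibitor locus on chromosome 9 showed the largest change. CDKN2A (chr9:21967751-21995300 in GRCh37), which encodes p16 and p14ARF, was at 0.132 and 0 TPM in immortalized and 85.7 and 82.5 TPM in transformed cells (log2 fold change 7.23 ± 0.37, adjusted p = 9.61e-08), and its neighbour CDKN2B, which encodes p15, at 0.0149 and 0 TPM in immortalized and 7.55 and 5.98 TPM in transformed cells (log2 fold change 3.83 ± 0.31, adjusted p = 2.12e-06). Both genes were near 0 in both immortalized libraries and expressed in both transformed ones. By transcript, ENST00000304494 (CDKN2A-201) was listed at 0 in both immortalized libraries and at 39.8 and 33.2 TPM in the transformed ones, and ENST00000578845 (CDKN2A-212) at 0 and at 42.0 and 44.2 TPM. Which protein each transcript encodes was not determined here, so the rise cannot be assigned to p14ARF. In primary cells at atmospheric oxygen CDKN2A was at 8.30 and 4.89 TPM.

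The phosphatase gene CDC25A, which activates CDK2, rose from 8.36 and 9.37 TPM in immortalized to 32.8 and 32.7 TPM in transformed cells (log2 fold change 1.83 ± 0.17, adjusted p = 6.42e-06), and CDK2 itself from 58.1 and 70.3 TPM in immortalized to 151 and 158 TPM in transformed cells (log2 fold change 1.27 ± 0.11, adjusted p = 3.91e-06). CCNE1, the cyclin partner of CDK2, rose, with a log2 fold change of 1.15 ± 0.15, whereas CCNE2 was at 14.7 and 12.4 against 27.1 and 26.0 TPM (log2 fold change 0.95 ± 0.12, adjusted p = 4.31e-05) and was not called for its size. CCND3, another cyclin of G1, rose with a log2 fold change of 1.03 ± 0.28, just past the threshold. CCND1, the cyclin that acts on the pocket proteins upstream of E2F, went the other way, from 198 and 242 TPM in immortalized to 80.8 and 82.9 TPM in transformed cells (log2 fold change -1.42 ± 0.15, adjusted p = 1.33e-05). CDK4 was at 314 and 301 against 468 and 491 TPM, CDK6 at 15.5 and 16.3 against 14.1 and 13.1 TPM and CDKN1B, which encodes p27, at 38.5 and 41.0 against 39.5 and 38.6 TPM, and none of these was called. The inhibitors CDKN2C and CDKN2D, with log2 fold changes of 0.90 ± 0.24 and 0.06 ± 0.21, were not called either, and CDKN1C and CCND2 were below the level tested.

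**Figure D1:**
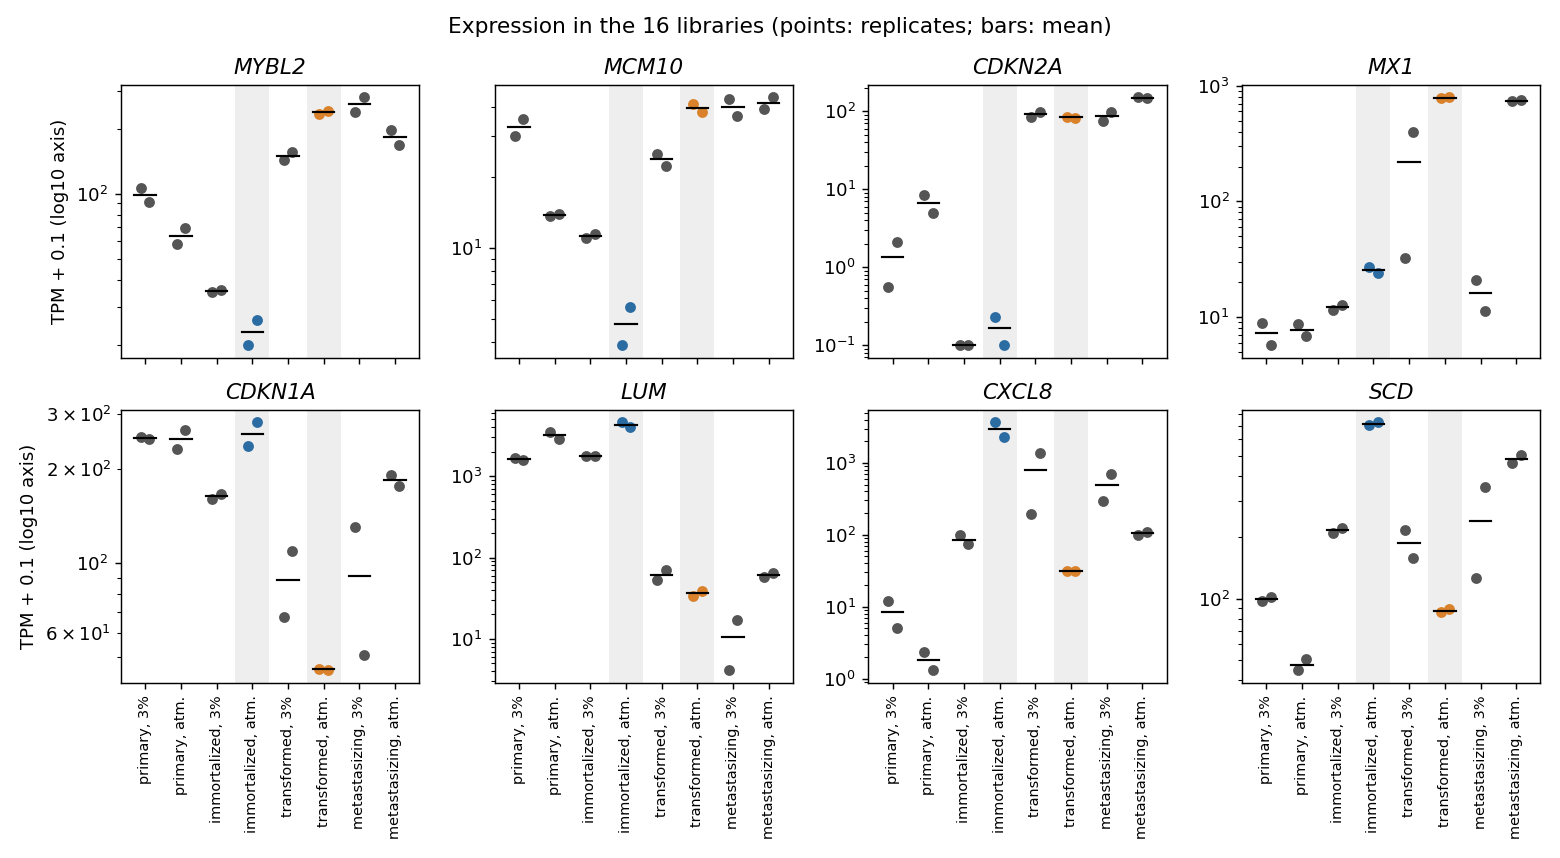
TPM of 8 genes in each of the 16 libraries, on a log10 axis of TPM + 0.1, with points for replicates a and b and bars for their mean, and with the immortalized and transformed groups at atmospheric oxygen shaded. MYBL2, MCM10, CDKN2A and MX1 are higher in both shaded transformed libraries than in both immortalized ones, and CDKN1A, LUM, CXCL8 and SCD are lower.

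Promoters of the genes of DNA replication and of mitosis are shown here because the groups rose together and differ in the letters their promoters hold. The sequences are from RefSeq on GRCh38.p14, from 250 bases before to 50 bases after the gene start, printed 5′ to 3′ on the strand of the gene, and capitals mark the motif. The E2F motif was searched as TTTCCCGC, TTTCGCGC, TTTGGCGC or TTTGCCGC on both strands. The replication genes with a motif and the largest rises were POLE2 (chr14:49688165-49688464, minus strand), GINS1 (chr20:25407423-25407722, plus strand) and GINS2 (chr16:85688905-85689204, minus strand).
POLE2: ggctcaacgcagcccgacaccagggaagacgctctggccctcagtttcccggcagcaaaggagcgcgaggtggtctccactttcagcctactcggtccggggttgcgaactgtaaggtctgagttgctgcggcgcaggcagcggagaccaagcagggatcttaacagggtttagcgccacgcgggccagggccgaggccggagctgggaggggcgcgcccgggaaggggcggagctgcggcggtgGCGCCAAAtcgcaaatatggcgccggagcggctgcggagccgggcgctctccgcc
GINS1: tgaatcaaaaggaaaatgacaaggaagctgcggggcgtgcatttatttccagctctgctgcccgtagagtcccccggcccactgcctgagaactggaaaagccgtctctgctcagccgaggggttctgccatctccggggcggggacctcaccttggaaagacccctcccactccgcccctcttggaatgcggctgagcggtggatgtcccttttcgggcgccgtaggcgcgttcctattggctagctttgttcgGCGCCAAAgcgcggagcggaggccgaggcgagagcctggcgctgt
GINS2: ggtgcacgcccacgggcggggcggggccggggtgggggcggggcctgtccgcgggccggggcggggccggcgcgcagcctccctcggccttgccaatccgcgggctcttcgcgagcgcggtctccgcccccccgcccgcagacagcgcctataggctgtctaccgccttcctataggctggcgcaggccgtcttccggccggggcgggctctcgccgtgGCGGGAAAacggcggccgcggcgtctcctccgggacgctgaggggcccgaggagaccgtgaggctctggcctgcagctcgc

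For mitosis, the motifs were the cell cycle homology region (CHR, TTTGAA or TTTAAA) and CCAAT, again on both strands, where TTTAAA reads the same on both. CCNB1 (chr5:69166900-69167199, plus strand) and CDCA8 (chr1:37692266-37692565, plus strand) showed the largest rises among mitosis genes with both. In CDCA8 the CHR and the last CCAAT, which is read on the opposite strand, share 1 base.
CCNB1: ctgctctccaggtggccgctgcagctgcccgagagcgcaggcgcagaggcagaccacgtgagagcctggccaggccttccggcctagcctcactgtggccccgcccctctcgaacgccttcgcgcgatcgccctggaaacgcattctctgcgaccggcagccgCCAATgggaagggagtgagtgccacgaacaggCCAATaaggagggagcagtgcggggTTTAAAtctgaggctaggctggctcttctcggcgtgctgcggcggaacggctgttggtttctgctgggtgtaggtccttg
CDCA8: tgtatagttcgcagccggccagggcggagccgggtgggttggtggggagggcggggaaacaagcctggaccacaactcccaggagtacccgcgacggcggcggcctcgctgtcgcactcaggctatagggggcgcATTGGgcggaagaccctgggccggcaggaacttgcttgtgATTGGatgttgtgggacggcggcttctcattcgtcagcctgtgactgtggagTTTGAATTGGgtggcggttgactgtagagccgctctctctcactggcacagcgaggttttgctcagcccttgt

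An E2F motif stood in 3.33% of all 27305 promoters, in 5.46% of those of the tested genes and in 19 of the 41 promoters matched for the replication genes (46.3%). It was present in 9.18% of the 1340 matched promoters of genes that rose, in 2.94% of 1056 for genes that fell and in 5.15% of 7644 for genes not called. CHR and CCAAT stood together in 9.49% of all promoters, in 33 of 54 for mitosis (61.1%) and in 0 of 41 for replication. Among genes that rose, 9.03% had both, among those that fell, 6.72%, and among those not called, 5.90%, against 6.40% of all 10040 tested genes with a promoter, so that the share among rises was below that of all promoters. These are matches of letters in a window, which do not show binding.

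Of 47 genes of replication licensing and DNA synthesis, 36 rose and 0 fell, the median log2 fold change was 1.32 (1.09 after median-ratio rescaling, with 26 rises), and all 47 changes were above 0. MCM10, which acts in the activation of the loaded replicative helicase, rose most, from 3.75 and 5.51 TPM in immortalized to 41.2 and 37.8 TPM in transformed cells (log2 fold change 2.98 ± 0.16, adjusted p = 1.58e-07). POLE2, a subunit of the leading-strand polymerase, was at 8.08 and 9.36 against 42.6 and 41.7 TPM (log2 fold change 2.21 ± 0.25, adjusted p = 2.70e-05). GINS1 and GINS2, which are part of the active helicase, were at 7.08 and 8.33 against 36.4 and 30.5 TPM (log2 fold change 2.05 ± 0.12, adjusted p = 2.61e-07) and at 10.0 and 10.9 against 42.5 and 43.9 TPM (log2 fold change 1.99 ± 0.10, adjusted p = 1.05e-07). These 4 genes were picked as large called rises, so that the lack of overlap between their libraries adds no support.

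The enzymes that supply nucleotides followed, with 12 of 16 genes rising, 0 falling and a median of 1.30 (1.08 after rescaling, with 9 rises). SAMHD1, which degrades deoxynucleotides and so works against supply, showed the largest rise, from 35.2 and 33.7 TPM in immortalized to 163 and 163 TPM in transformed cells (log2 fold change 2.23 ± 0.38, adjusted p = 0.000524). NME1, a nucleoside diphosphate kinase, was at 164 and 161 against 544 and 527 TPM (log2 fold change 1.72 ± 0.10, adjusted p = 2.31e-07), and thymidine kinase TK1 at 62.4 and 104 against 279.5 and 251 TPM (log2 fold change 1.71 ± 0.28, adjusted p = 0.000352). The serine hydroxymethyltransferase SHMT1, which feeds folate into thymidylate synthesis, rose, with a log2 fold change of 1.64 ± 0.12.

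Of 64 mitotic genes tested, 47 rose and 0 fell, with a median of 1.36 (1.13 after rescaling, with 35 rises) and all changes above 0. The kinase AURKA, which matures the spindle poles, was at 45.5 and 48.3 TPM in immortalized and 273 and 279 TPM in transformed cells (log2 fold change 2.54 ± 0.32, adjusted p = 5.23e-05), and AURKB, the kinase of the chromosomal passenger complex, at 40.2 and 48.6 TPM in immortalized and 189 and 204 TPM in transformed cells (log2 fold change 2.14 ± 0.15, adjusted p = 6.39e-07). CCNB1, the cyclin that drives entry into mitosis, was at 111 and 122 TPM in immortalized and 471 and 460.4 TPM in transformed cells (log2 fold change 1.99 ± 0.15, adjusted p = 1.14e-06), and CDCA8, a partner of AURKB, at 27.0 and 33.3 TPM in immortalized and 118 and 119 TPM in transformed cells (log2 fold change 1.97 ± 0.17, adjusted p = 3.43e-06). ANLN, which organizes the contractile ring, and CEP83, a centriole protein, rose, with log2 fold changes of 1.22 ± 0.17 and 1.80 ± 0.24. KNL1, a scaffold of the kinetochore, was at 9.35 and 9.55 against 22.0 and 39.7 TPM and was not called (log2 fold change 1.59 ± 0.45, adjusted p = 0.0109), with its transformed replicates apart.

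In homologous recombination and the Fanconi pathway 17 of 36 genes rose and 0 fell, with a median of 1.09 (0.90 after rescaling, with 15 rises). RAD51C and XRCC3, which act together in strand exchange, were at 14.1 and 12.7 TPM in immortalized and 56.6 and 52.8 TPM in transformed cells (log2 fold change 1.99 ± 0.09, adjusted p = 4.15e-08) and at 12.4 and 14.4 against 52.0 and 50.2 TPM (log2 fold change 1.89 ± 0.14, adjusted p = 1.21e-06). The translocase gene RAD54L rose, with a log2 fold change of 1.86 ± 0.20.

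Of 22 genes for chromatin assembly and modification in S phase, 12 rose and 1 fell (median 1.07, and 0.84 after rescaling, with 6 rises). LMNB1, the nuclear lamin B1, was at 40.7 and 49.5 TPM in immortalized and 177 and 178 TPM in transformed cells (log2 fold change 1.97 ± 0.12, adjusted p = 2.24e-07), and the histone H3K9 methyltransferase SUV39H2 at 10.3 and 8.50 TPM in immortalized and 33.9 and 32.3 TPM in transformed cells (log2 fold change 1.77 ± 0.12, adjusted p = 7.90e-07). HMGA2, an architectural chromatin protein, was the single fall, at 50.03 and 51.7 against 23.5 and 22.5 TPM (log2 fold change -1.13 ± 0.28, adjusted p = 0.00497). Among the cytidine deaminases of the APOBEC3 family, APOBEC3B alone of 5 tested genes was called, at 14.6 and 18.8 TPM in immortalized and 41.7 and 40.8 TPM in transformed cells (log2 fold change 1.29 ± 0.13, adjusted p = 1.23e-05). The median of the 5 was 0.35 (0.13 after rescaling).

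**Figure D2:**
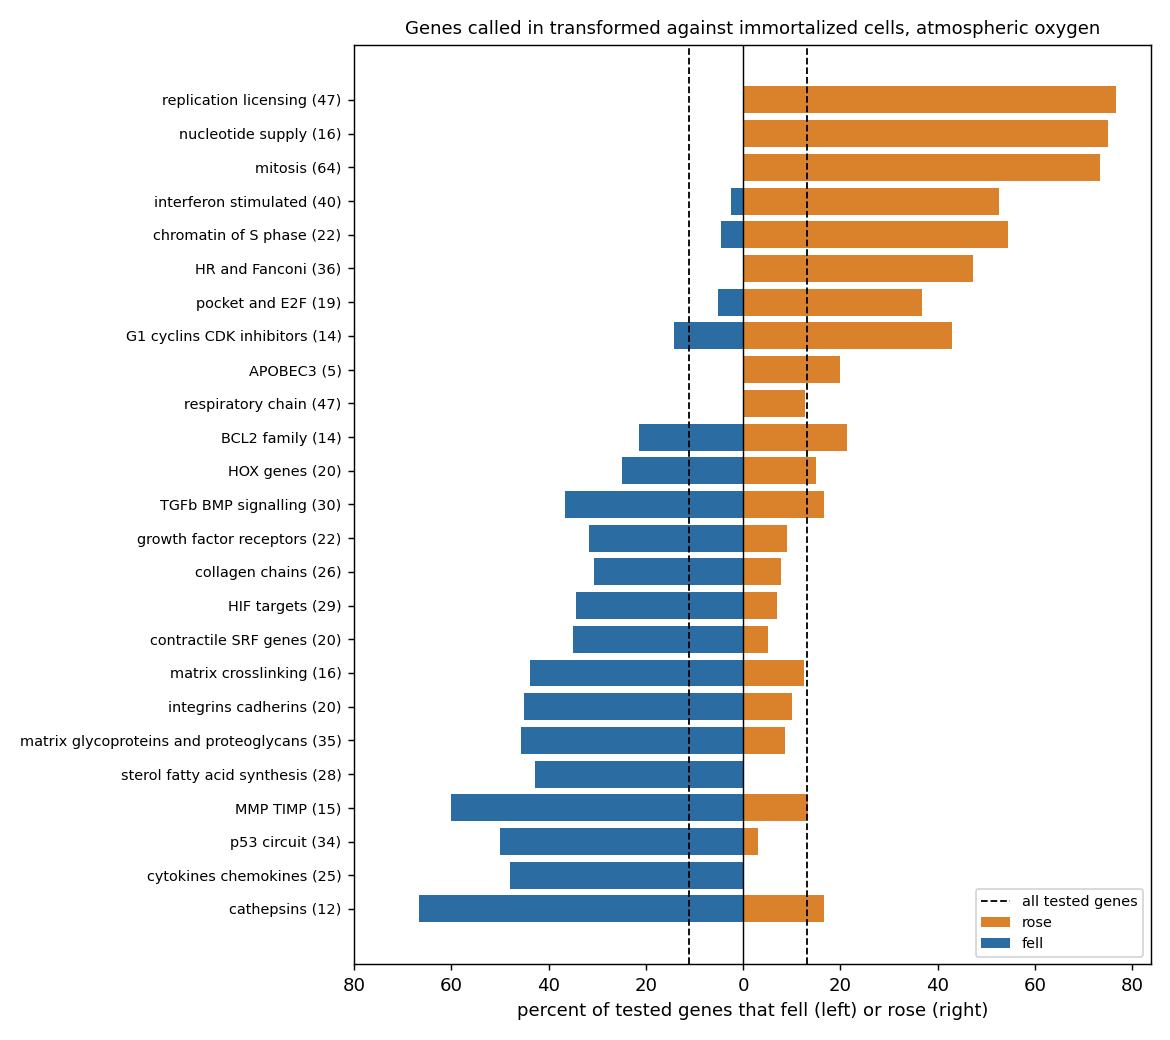
Percent of the tested genes of each of 25 gene groups that rose (right, orange) or fell (left, blue) in transformed against immortalized cells at atmospheric oxygen, with the number tested in brackets and dashed lines at the shares among all tested genes, 13.2% and 11.1%. The replication, nucleotide and mitosis groups have the longest bars to the right with no falls, and cathepsins, proteases, the p53 circuit and cytokines have long bars to the left.

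Among 35 matrix glycoproteins and proteoglycans, 16 fell and 3 rose (median -1.29, and -1.51 after rescaling). Lumican (LUM), a small proteoglycan that spaces collagen fibrils, was at 4576 and 4051 TPM in immortalized and 33.2 and 39.1 TPM in transformed cells (log2 fold change -6.88 ± 0.44, adjusted p = 3.96e-07), and decorin (DCN), of the same family, at 1981 and 1762 TPM in immortalized and 23.2 and 23.5 TPM in transformed cells (log2 fold change -6.29 ± 0.34, adjusted p = 1.33e-07). The elastic fibre proteins FBLN5 and MFAP4 were at 181 and 182 against 5.92 and 6.50 TPM (log2 fold change -4.76 ± 0.21, adjusted p = 3.89e-08) and at 119 and 126 against 3.92 and 4.78 TPM (log2 fold change -4.67 ± 0.23, adjusted p = 8.50e-08). Each of these 4 genes kept its replicates close. They were picked for large called falls, so that a lack of overlap between the groups adds no support.

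Of the 3 matrix genes that rose, 2 were at or near 0 in immortalized cells. FBN2, the fibrillin of embryonic microfibrils, went from 0.0156 and 0.00697 TPM in immortalized to 53.7 and 49.6 TPM in transformed cells (log2 fold change 6.67 ± 0.26, adjusted p = 1.35e-08). POSTN, which encodes periostin, was listed at 0 TPM in both immortalized libraries and at 5.43 and 5.28 TPM in the transformed ones. TGFBI, a matrix protein induced by TGFβ, started from a higher level, at 32.0 and 37.1 TPM in immortalized and 181 and 189 TPM in transformed cells (log2 fold change 2.41 ± 0.10, adjusted p = 2.41e-08). In primary cells in air POSTN was at 63.5 and 58.5 TPM and FBN2 at 12.4 and 14.6 TPM, so both genes were expressed before the immortalized stage.

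Of 26 collagen chains tested, 8 fell and 2 rose, against 11.1% and 13.2% of all tested genes. The median was -0.75 (-0.94 after rescaling, with 8 falls and 1 rise). COL15A1, a basement membrane collagen, was at 47.7 and 43.1 TPM in immortalized and 2.78 and 3.92 TPM in transformed cells (log2 fold change -3.59 ± 0.38, adjusted p = 1.36e-05), and COL6A3, a chain of the microfibrillar type VI, at 964 and 1033 TPM in immortalized and 153 and 145 TPM in transformed cells (log2 fold change -2.74 ± 0.15, adjusted p = 1.73e-07). COL14A1 and COL13A1 fell, with log2 fold changes of -2.48 ± 0.22 and -2.36 ± 0.23. COL4A1, of the network-forming type IV, and COL5A2, which joins type I fibrils, rose, at 43.8 and 46.5 against 118 and 117 TPM (log2 fold change 1.37 ± 0.26, adjusted p = 0.000881) and 187 and 189 against 385 and 401 TPM (log2 fold change 1.06 ± 0.14, adjusted p = 6.35e-05). Among the enzymes and chaperones that mature collagen, 7 of 16 fell and 2 rose, the rises near the 13.2% of all tested genes. Their median was -0.85 (-1.07 after rescaling, with 9 falls and 1 rise). The lysyl oxidase LOXL4 was the most changed of them, at 179 and 201 TPM in immortalized and 2.48 and 2.17 TPM in transformed cells (log2 fold change -6.08 ± 0.22, adjusted p = 8.49e-09), and the lysyl hydroxylase PLOD2 and the procollagen protease ADAMTS2 rose, with log2 fold changes of 1.02 ± 0.12 and 1.44 ± 0.19.

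Of 15 matrix metalloproteinases and their inhibitors, 9 fell and 2 rose, against 11.1% and 13.2% of all tested genes. The median was -1.58 (-1.81 after rescaling, with 11 falls and 1 rise). The stromelysin MMP3 was at 1972 and 1255 TPM in immortalized and 12.3 and 11.2 TPM in transformed cells (log2 fold change -7.01 ± 0.33, adjusted p = 5.96e-08), the gelatinase MMP2 at 953 and 819.6 TPM in immortalized and 86.2 and 89.2 TPM in transformed cells (log2 fold change -3.33 ± 0.14, adjusted p = 3.47e-08), and MMP14, the membrane protease that activates MMP2, at 494 and 469 against 85.7 and 87.2 TPM (log2 fold change -2.47 ± 0.19, adjusted p = 1.71e-06). MMP11 fell, with a log2 fold change of -2.43 ± 0.62, and MMP1, the interstitial collagenase, was at 1049.8 and 704 against 407 and 399 TPM and was not called (log2 fold change -1.09 ± 0.34, adjusted p = 0.0184), although it was after median-ratio rescaling (-1.32). MMP15 and MMP16, both membrane-bound, rose from low levels, with log2 fold changes of 2.21 ± 0.24 and 1.01 ± 0.21.

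Of 12 cathepsins, the proteases of lysosomes, 8 fell and 2 rose, against 11.1% and 13.2% of all tested genes. The median was -1.09 (-1.32 after rescaling). Cathepsin K (CTSK), a collagenase, had the largest fall of any gene in the groups, from 1641 and 1374 TPM in immortalized to 4.10 and 4.27 TPM in transformed cells (log2 fold change -8.32 ± 0.38, adjusted p = 4.68e-08). CTSB was at 2986 and 3196 TPM in immortalized and 642 and 623 TPM in transformed cells (log2 fold change -2.29 ± 0.10, adjusted p = 2.79e-08), CTSS at 30.4 and 28.4 against 2.80 and 2.41 TPM (log2 fold change -3.27 ± 0.62, adjusted p = 0.00103) and CTSL at 638 and 686 against 235 and 225 TPM (log2 fold change -1.52 ± 0.10, adjusted p = 6.60e-07). CTSV and CTSH rose instead, from 0.341 and 0.0561 to 8.11 and 6.61 TPM (log2 fold change 3.52 ± 0.25, adjusted p = 8.59e-07) and from 7.05 and 6.81 to 35.7 and 28.6 TPM (log2 fold change 2.13 ± 0.24, adjusted p = 2.27e-05).

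Of 20 contractile genes 7 fell and 1 rose, against 11.1% and 13.2% of all tested genes, with a median of 0.07 (-0.16 after rescaling). LMOD1 and SYNPO2, which act on actin filaments of smooth muscle, fell, with log2 fold changes of -3.95 ± 0.37 and -3.84 ± 0.21, and smooth muscle actin ACTA2 was at 85.5 and 68.1 TPM in immortalized and 10.6 and 9.98 TPM in transformed cells (log2 fold change -2.83 ± 0.38, adjusted p = 8.55e-05). The other smooth muscle actin, ACTG2, rose, from 37.1 and 38.8 TPM in immortalized to 168 and 171 TPM in transformed cells (log2 fold change 2.14 ± 0.18, adjusted p = 3.14e-06). Among 20 integrins and cadherins 9 fell and 2 rose, the rises near the 13.2% of all tested genes. The median was -0.97 (-1.20 after rescaling, with 10 falls and 1 rise). The collagen receptor chain ITGA2 led the falls, at 82.7 and 71.5 against 2.02 and 2.10 TPM (log2 fold change -4.92 ± 0.49, adjusted p = 8.87e-06). The protocadherin PCDH18 was at 62.8 and 63.0 against 3.83 and 4.26 TPM (log2 fold change -3.80 ± 0.35, adjusted p = 5.46e-06).

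Of 22 growth factor receptors 7 fell and 2 rose, against 11.1% and 13.2% of all tested genes, so that the share of rises was near that of all genes. The median was -0.71 (-0.93 after rescaling, with 9 falls and 2 rises). PDGFRA, the α receptor for platelet-derived growth factor that marks fibroblasts, was at 233 and 199 TPM in immortalized and 0.299 and 0.660 TPM in transformed cells (log2 fold change -7.81 ± 0.22, adjusted p = 2.12e-09), and its relative PDGFRB at 221 and 192 TPM in immortalized and 42.9 and 32.8 TPM in transformed cells (log2 fold change -2.44 ± 0.15, adjusted p = 3.46e-07). The collagen receptor DDR2 fell, with a log2 fold change of -1.92 ± 0.11. The ephrin receptor EPHB2 rose from 0.566 and 0.727 to 29.1 and 29.8 TPM (log2 fold change 4.71 ± 0.22, adjusted p = 5.96e-08), and KIT, the receptor for stem cell factor, also rose, with a log2 fold change of 1.54 ± 0.36.

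In TGFβ and BMP signalling 11 of 30 genes fell and 5 rose, the rises near the 13.2% of all tested genes (median -0.41, and -0.63 after rescaling). Among ligands, TGFB2 rose from 0.782 and 0.813 TPM in immortalized to 47.1 and 43.7 TPM in transformed cells (log2 fold change 5.14 ± 0.58, adjusted p = 2.50e-05), while BMP2 was at 2.78 and 2.46 against 0 and 0.0865 TPM (log2 fold change -2.52 ± 0.20, adjusted p = 2.07e-06). LTBP1, which stores latent TGFβ in the matrix, fell, with a log2 fold change of -3.79 ± 0.29, and the antagonist FST fell with a log2 fold change of -2.72 ± 0.26. ID3, ID1 and ID2, inhibitors of basic helix-loop-helix factors and targets of BMP signals, rose. All of them stood higher still in primary cells in air, with ID3 at 266 and 339 TPM and ID1 at 115 and 213 TPM. ID3 was at 18.0 and 31.8 TPM in immortalized and 186 and 168 TPM in transformed cells (log2 fold change 2.86 ± 0.38, adjusted p = 7.89e-05), ID1 at 6.15 and 13.4 TPM in immortalized and 53.9 and 46.0 TPM in transformed cells (log2 fold change 2.38 ± 0.41, adjusted p = 0.000469) and ID2 at 12.4 and 15.2 against 61.3 and 60.6 TPM (log2 fold change 2.11 ± 0.16, adjusted p = 1.20e-06).

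Secreted cytokines and chemokines showed the lowest median of the 25 gene groups, -1.99 (-2.11 after rescaling), with 12 of 25 genes falling and 0 rising. Interleukin 1β (IL1B) was at 589 and 336 TPM in immortalized and 1.89 and 3.22 TPM in transformed cells (log2 fold change -7.22 ± 0.74, adjusted p = 1.18e-05), and the neutrophil chemoattractant CXCL8 at 3653 and 2324 TPM in immortalized and 31.6 and 31.1 TPM in transformed cells (log2 fold change -6.52 ± 0.75, adjusted p = 2.74e-05). The colony-stimulating factors CSF2 and CSF3 were at 77.6 and 64.6 against 0 and 0.272 TPM (log2 fold change -6.84 ± 0.81, adjusted p = 3.35e-05) and at 60.3 and 50.4 against 0.193 and 0.220 TPM (log2 fold change -6.30 ± 1.25, adjusted p = 0.00134). In all 4 genes, which were picked for large falls, the groups were far apart, and CSF2, CSF3 and IL1B were near 0 in transformed cells.

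SOD2, the mitochondrial superoxide dismutase, which inflammatory signals induce, was at 2208 and 1780.0 TPM in immortalized and 69.9 and 78.4 TPM in transformed cells (log2 fold change -4.73 ± 0.45, adjusted p = 7.19e-06). In primary cells at the same oxygen level CXCL8 was at 2.25 and 1.19 TPM and SOD2 at 51.3 and 52.4 TPM, so that for both genes the immortalized libraries held the high levels and the primary and transformed libraries the low ones. PTGS2, the inducible cyclooxygenase of prostaglandin synthesis, and IL24, a cytokine outside this group, were at 499.6 and 329 against 0.829 and 0.698 TPM (log2 fold change -8.33 ± 0.49, adjusted p = 2.37e-07) and 194 and 117 against 0.0876 and 0.0948 TPM (log2 fold change -8.00 ± 0.45, adjusted p = 1.70e-07).

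Interferon-stimulated genes moved the other way and had the highest median of the 25 groups, 2.31 (2.09 after rescaling). Of 40 tested, 21 rose and 1 fell (15 and 1 after median-ratio rescaling, 16 and 1 after quantile normalization), and 38 changes were above 0. OASL, of the family of oligoadenylate synthetases, was at 1.41 and 1.03 TPM in immortalized and 146 and 154 TPM in transformed cells (log2 fold change 6.46 ± 0.82, adjusted p = 5.94e-05), and the antiviral protein RSAD2 at 0.989 and 1.02 TPM in immortalized and 76.3 and 75.1 TPM in transformed cells (log2 fold change 5.66 ± 0.91, adjusted p = 0.000312). The nucleotide kinase CMPK2, which lies next to RSAD2, and the dynamin-like GTPase MX1 were at 2.07 and 1.57 against 70.5 and 71.6 TPM (log2 fold change 4.95 ± 0.92, adjusted p = 0.000868) and at 26.9 and 23.7 against 786 and 793 TPM (log2 fold change 4.94 ± 0.81, adjusted p = 0.000352). GBP2, a guanylate-binding protein induced by interferon γ, was the fall, at 37.6 and 32.0 against 6.54 and 6.77 TPM (log2 fold change -2.30 ± 0.18, adjusted p = 1.88e-06). Replicates of both groups were close. The fit estimates each gene's spread over all 8 groups, and in transformed cells at 3% oxygen the replicates were apart, with MX1 at 32.5 and 401 TPM and OASL at 9.42 and 88.5 TPM.

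Of 28 genes of sterol and fatty acid synthesis 12 fell and 0 rose (median -0.73, and -0.96 after rescaling, with 14 falls). The desaturases SCD and FADS2 were at 707 and 727 TPM in immortalized and 86.3 and 88.8 TPM in transformed cells (log2 fold change -3.03 ± 0.34, adjusted p = 2.23e-05) and at 655 and 603 against 109.6 and 128 TPM (log2 fold change -2.40 ± 0.39, adjusted p = 0.000351), and LSS, which closes the sterol rings, at 156 and 176 against 33.0 and 34.2 TPM (log2 fold change -2.29 ± 0.47, adjusted p = 0.0016). INSIG1, a feedback regulator of the SREBP factors, fell, with a log2 fold change of -2.05 ± 0.17, and both SREBP genes, SREBF1 and SREBF2, belonged to the 12.

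Targets of the hypoxia-inducible factors were compared here in normal air, in a group that also holds the factor genes HIF1A, EPAS1 and ARNT. EPAS1 is one of its falls. Of 29 tested, 10 fell and 2 rose, against 11.1% and 13.2% of all tested genes. The median was -0.19 (-0.42 after rescaling, with 11 falls and 0 rises). The glycoprotein hormone STC1 was at 332 and 203 TPM in immortalized and 6.08 and 5.86 TPM in transformed cells (log2 fold change -5.33 ± 0.59, adjusted p = 2.19e-05), the stress protein NDRG1 at 140.4 and 111 TPM in immortalized and 14.4 and 15.3 TPM in transformed cells (log2 fold change -3.03 ± 0.30, adjusted p = 8.05e-06) and carbonic anhydrase CA9 at 4.55 and 7.73 against 0.231 and 0.487 TPM (log2 fold change -2.92 ± 0.48, adjusted p = 0.00036). VEGFA, the vascular growth factor, fell, with a log2 fold change of -1.47 ± 0.23. EPAS1, the factor HIF2α, fell from 303 and 265 TPM in immortalized to 68.4 and 70.7 TPM in transformed cells (log2 fold change -2.02 ± 0.13, adjusted p = 3.19e-07), while HIF1A was at 297 and 273 against 344 and 339.8 TPM and was not called (log2 fold change 0.26 ± 0.11, adjusted p = 0.0534). The 2 rises, ENO1 and PLOD2, were lost after median-ratio rescaling.

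Of 47 subunits of the respiratory chain, 6 rose and 0 fell (median 0.56, and 0.34 after rescaling, with 1 rise), a share of rises near the 13.2% of all tested genes. The largest was CYC1, at 83.5 and 91.3 against 209 and 202 TPM (log2 fold change 1.23 ± 0.12, adjusted p = 6.14e-06). In the BCL2 family 3 of 14 genes rose and 3 fell, against 13.2% and 11.1% of all tested genes. Their median was 0.02 (-0.19 after rescaling, with 2 rises and 3 falls). BAK1, which opens the mitochondrial membrane in apoptosis, rose from 7.86 and 10.3 to 36.3 and 37.1 TPM (log2 fold change 1.97 ± 0.15, adjusted p = 1.74e-06) and BCL2A1, which protects against it, fell, from 5.49 and 2.13 to 0.119 and 0 TPM (log2 fold change -2.83 ± 0.61, adjusted p = 0.00213). Of 20 HOX genes, which record position along the body axis, 5 fell and 3 rose, against 11.1% and 13.2% of all tested genes. Their share of rises was thus near that of all genes, and their median was -0.30 (-0.50 after rescaling, with 6 falls and 2 rises). HOXD10 and HOXC8 led the HOX genes, at 11.04 and 10.0 against 0.396 and 0.563 TPM (log2 fold change -3.50 ± 0.29, adjusted p = 2.36e-06) and 0.157 and 0.0701 against 2.88 and 3.11 TPM (log2 fold change 2.51 ± 0.30, adjusted p = 3.81e-05).

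Among other genes that the study names, ASS1, which makes argininosuccinate from citrulline, was at 695 and 662 TPM in immortalized and 24.9 and 24.1 TPM in transformed cells (log2 fold change -4.76 ± 0.29, adjusted p = 2.79e-07). The aldose reductase AKR1B1 and the aminopeptidase ANPEP fell, at 2947 and 2033 against 232 and 241 TPM (log2 fold change -3.37 ± 0.27, adjusted p = 2.03e-06) and 866 and 1016 against 95.6 and 95.0 TPM (log2 fold change -3.29 ± 0.46, adjusted p = 0.000113), and the ketone body enzyme BDH1 rose, at 4.69 and 7.73 against 31.8 and 34.9 TPM (log2 fold change 2.37 ± 0.19, adjusted p = 2.22e-06). ANXA1 was at 736 and 709 against 550.0 and 525 TPM and was not called for its size. The kinase STYK1 was at 0.636 and 0.504 against 29.7 and 2.56 TPM and was not called (log2 fold change 3.17 ± 1.23, adjusted p = 0.0459), with its 2 transformed libraries far apart.

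Several of the largest changes over all tested genes were between levels near 0 and clear expression. BEX1, an X-linked gene of nervous tissue, was at 0.0893 and 0 TPM in immortalized and 335 and 311 TPM in transformed cells (log2 fold change 9.22 ± 0.22, adjusted p = 5.43e-10). EEF1A2, the muscle and nerve form of an elongation factor, and GFRA1, a co-receptor for glial-derived neurotrophic factor, were at 1.06 and 1.70 against 137 and 122 TPM (log2 fold change 6.13 ± 0.34, adjusted p = 1.49e-07) and 0.297 and 0.529 against 48.4 and 51.9 TPM (log2 fold change 5.80 ± 0.20, adjusted p = 8.21e-09). GPAT2 was listed at 0 TPM in both immortalized libraries and at 27.0 and 26.7 TPM in the transformed ones. In the other direction, the amino acid transporter gene SLC38A11 was at 230.3 and 225 TPM in immortalized and 0.0192 and 0.0208 TPM in transformed cells (log2 fold change -8.78 ± 0.17, adjusted p = 1.64e-10), and RGCC, a regulator of the cell cycle, at 257 and 239 against 0.0941 and 0.306 TPM (log2 fold change -8.49 ± 0.72, adjusted p = 2.86e-06). S100A4, a calcium-binding protein of fibroblasts, stayed expressed in both groups, at 4451 and 4270.0 TPM in immortalized and 23.9 and 28.7 TPM in transformed cells (log2 fold change -7.35 ± 0.48, adjusted p = 4.53e-07).

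Of the 10 called genes with the highest mean levels, 6 fell and 4 rose. The ferritin chains, which store iron, were at 9892 and 9672 TPM in immortalized and 2674 and 2709 TPM in transformed cells for FTL (log2 fold change -1.86 ± 0.13, adjusted p = 9.35e-07) and at 7987 and 6307 against 1912 and 1923 TPM for FTH1 (log2 fold change -1.89 ± 0.17, adjusted p = 3.89e-06). TMSB4X, which binds actin monomers, was at 6409.7 and 5743 against 2084 and 1971 TPM (log2 fold change -1.58 ± 0.10, adjusted p = 3.13e-07), and TPT1, S100A6 and S100A4 were the other falls. The chaperone HSPA8 and the ribosomal protein RPS21 rose, at 1481 and 1602 against 3893 and 3671 TPM (log2 fold change 1.29 ± 0.19, adjusted p = 0.000197) and 1019 and 1309 against 4565 and 4168 TPM (log2 fold change 1.92 ± 0.27, adjusted p = 0.000124), and so did ENO1 and TUBA1B, at 1618 and 1707 against 3551 and 3675 TPM and 1898 and 2194 against 4366 and 4484 TPM, until median-ratio rescaling brought them to 0.89 and 0.89, below the threshold.

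In some genes the main transcript differed between the groups. In ATP5F1C, a subunit of ATP synthase, ATP5F1C-201 (ENST00000335698) held 74.2% and 69.9% of the gene's TPM in immortalized and 16.4% and 16.2% in transformed cells, and ATP5F1C-202 (ENST00000356708) 19.9% and 26.6% against 79.2% and 79.5%. For UAP1, an enzyme of amino sugar synthesis, UAP1-201 went from 70.8% and 70.4% to 41.1% and 41.5%, and UAP1-202 from 25.2% and 25.6% to 54.6% and 54.6%. Replicates lay close together in both genes. These shares are of estimated transcript levels, and were not tested.

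**Figure D3:**
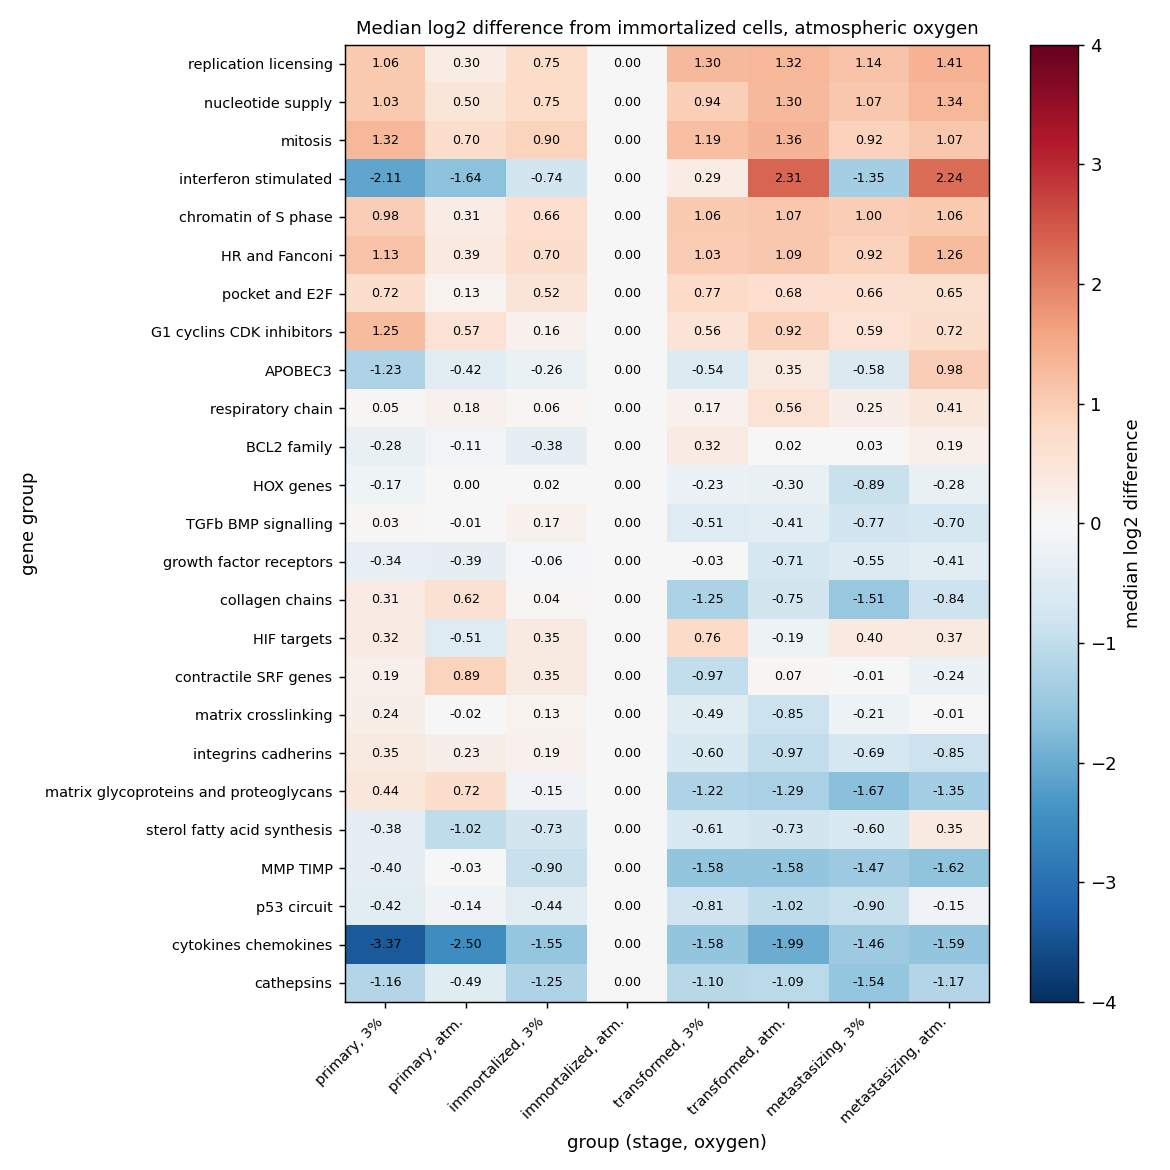
Median log2 difference of each gene group from immortalized cells at atmospheric oxygen (the reference column, 0 by construction) in the 8 groups of the series, computed over the tested members from the mean of the 2 libraries. Cytokines are lower than the reference column in all 7 other groups and sterol synthesis in all but metastasizing cells at atmospheric oxygen, mitosis is higher in all, and interferon-stimulated genes are high in transformed and metastasizing cells at atmospheric oxygen. Members were kept by their level in immortalized or transformed cells in air. Some, such as CSF2 and CSF3, were kept only through the reference column, so that lower values elsewhere are partly built in.

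The place of both groups within the model differed by gene group. Primary cells at atmospheric oxygen lay nearer to transformed than to immortalized cells for 38.9% of the genes that rose and 42.6% of those that fell. For cytokines and for sterol synthesis, primary cells were nearer to the transformed ones for all 12 falls of each. For mitosis this held for 29 of 47 rises, and for replication for 3 of 36. None of the 21 interferon-stimulated rises and none of the 16 falls of matrix glycoproteins had primary cells on the transformed side. All 3 rises of matrix glycoproteins and all 5 rises in TGFβ and BMP signalling did. Metastasizing cells at atmospheric oxygen, which descend from transformed ones, were nearer to these for 85.5% of rises and 79.9% of falls. Several groups of falls had lower shares, with 0 of the 12 sterol genes, 2 of 7 genes that mature collagen, 3 of 10 of the hypoxia group and 8 of 17 of the p53 circuit. Against immortalized cells in air, the median log2 difference of the p53 circuit was -1.02 in transformed and -0.15 in metastasizing cells in air, where CDKN1A was at 192 and 177 TPM. SCD, for example, was at 44.6 and 50.6 TPM in primary and 463 and 505 TPM in metastasizing cells.

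The same step was measured at 3% oxygen in 4 other libraries. There 1041 of the 12387 genes rose (8.4%) and 891 fell (7.19%), and of the 3012 genes called in air 1077 (35.8%) were called in the same direction at 3% oxygen and 47 in the opposite one. The difference of the 2 steps, tested as an interaction in the same fit, was called for 1516 of 12715 genes, 741 positive (5.83%) and 775 negative (6.1%). This count fell to 987 without replicate b of immortalized cells at 3% oxygen and to 992 without replicate b of transformed cells at atmospheric oxygen.

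Replication genes had 3 rises of 47 and a median of 0.44 there, against 36 and 1.32 in air, and 11 had a called positive difference. Mitosis had 3 rises of 64 and a median of 0.32, and 22 called positive differences. Over all tested genes 8.4% rose at 3% oxygen, so that neither group rose there above that share, and 5.83% had a called positive difference. Against immortalized cells in air, the median log2 difference of mitosis genes was 0.90 in immortalized cells at 3% oxygen, 1.19 in transformed cells at 3% oxygen and 1.36 in transformed cells in air. AURKA, for example, was at 109 and 106 TPM in immortalized and 227 and 219.8 TPM in transformed cells at 3% oxygen. In the p53 circuit 5 of 34 fell at 3% oxygen, with a median of -0.12, and 8 differences were negative. The shares over all genes were 7.19% and 6.1%. Interferon-stimulated genes had 7 rises of 40 at 3% oxygen, against 8.4% of all tested genes, and a median of 0.82. Of their differences, 0 were called positive and 1 negative, so that no larger rise in air was called for any of them. Their median difference was still 1.14. Transformed replicates at 3% oxygen were far apart for genes such as MX1 and OASL, so the lack of calls does not show that the steps were alike.

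Cytokines had the most called negative differences of the 25 groups, 15 of 25, and 1 positive one, against 6.1% and 5.83% of all genes. At 3% oxygen 2 cytokines fell and 3 rose, against 7.19% and 8.4% of all tested genes. Their median was 0.63 there, against -1.99 in air. CXCL8 was there at 98.0 and 73.3 TPM in immortalized and 191 and 1385 TPM in transformed cells, a difference between the steps of -9.11 ± 1.06, adjusted p = 0.000155, and the transformed replicates at 3% oxygen were far apart. Cathepsins (7 of 12 negative), the hypoxia group (7 of 29, EPAS1 among them) and sterol synthesis (6 of 28) also had several called differences. The share of negative differences over all genes was 6.1%. ASS1 was at 228 and 211 TPM and 219 and 213 TPM at 3% oxygen, with a difference of -4.74 ± 0.41, adjusted p = 3.83e-05. ID1 and ID3 rose in air and fell at 3% oxygen, with differences of 6.53 and 7.14.

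Collagens had 12 falls and 3 rises of 26 at 3% oxygen (median -1.22), and matrix glycoproteins 18 falls and 2 rises of 35 (median -1.43). Over all tested genes 7.19% fell and 8.4% rose there. Differences between the steps were called positive for 4 and negative for 2 of the 26 collagens, the latter near the 6.1% of all genes. For matrix glycoproteins 6 were positive and 6 negative, against 5.83% and 6.1% of all genes tested for a difference. LUM was at 1777 and 1766 TPM in immortalized and 52.5 and 69.7 TPM in transformed cells at 3% oxygen, and SLC38A11 at 299.7 and 324 TPM and 0.193 and 0.0489 TPM. BEX1 and CDKN2A likewise rose from 0.1004 and 0 TPM to 443 and 406 TPM and from 0 and 0 TPM to 85.2 and 97.4 TPM.

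**Figure D4:**
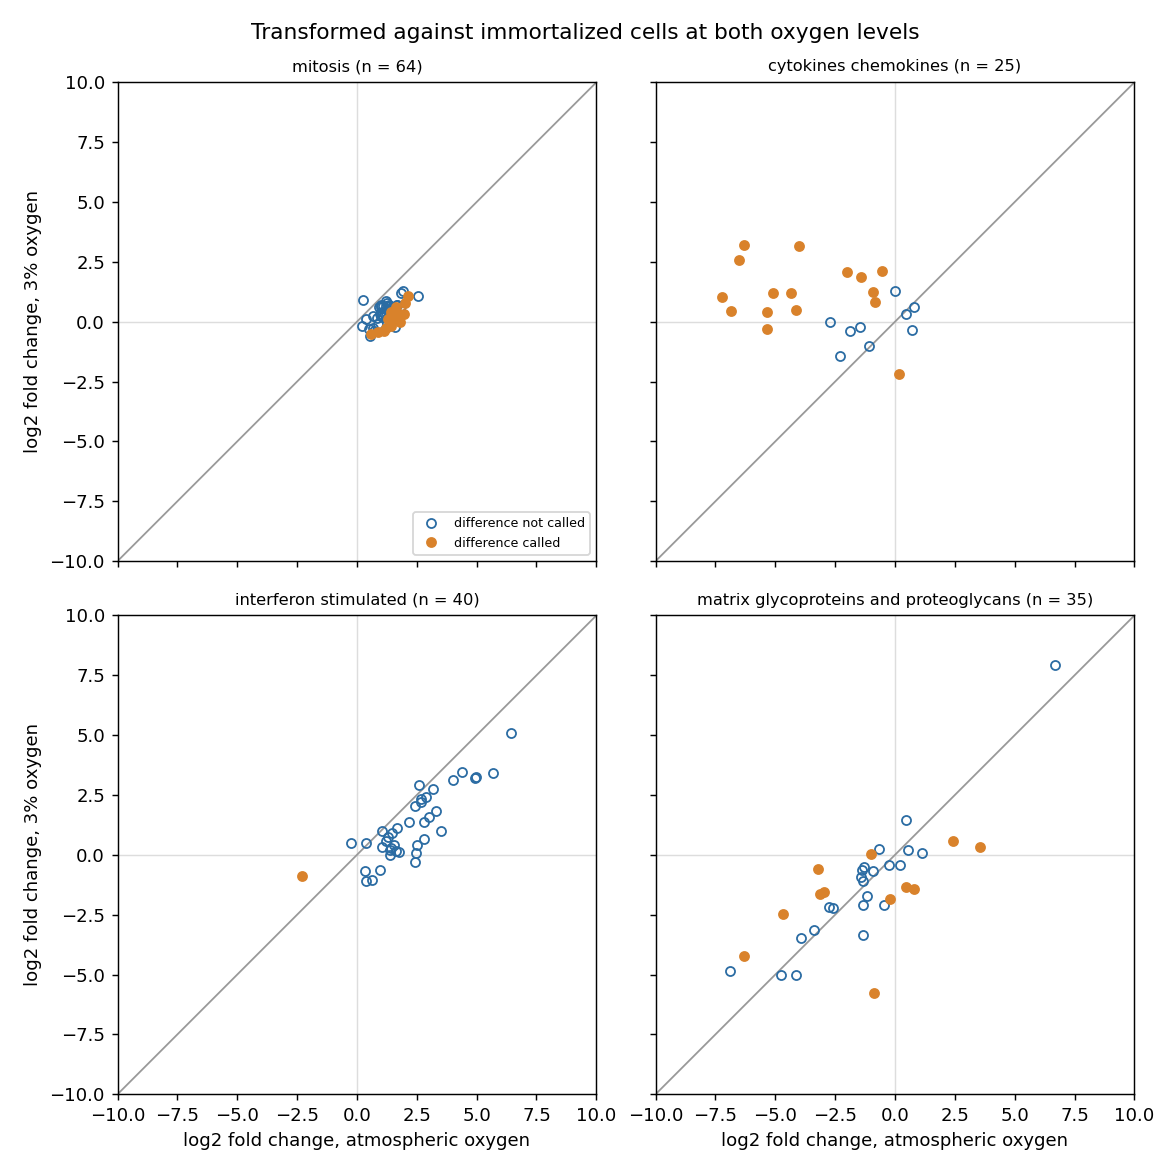
Log2 fold change of transformed against immortalized cells at atmospheric oxygen (x axis) and at 3% oxygen (y axis) for the tested genes of 4 groups, with a diagonal line of equal change and filled points for genes whose difference between the steps was called. Most mitosis genes lie to the right of the diagonal and most cytokines lie to the left of it. Matrix glycoproteins spread along it, with 6 positive and 6 negative called differences of 35. Interferon-stimulated genes had 0 positive and 1 negative called difference of 40, with a median difference of 1.14 and transformed replicates apart at 3% oxygen for genes such as MX1. Over all genes 5.83% of differences were called positive and 6.1% negative.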

How the data were processed

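Poly-A RNA of 16 libraries (4 stages of the BJ fibroblast model, 2 oxygen levels, 2 replicates) was sequenced, and the authors deposited a table of TPM per transcript. The submitters' processing notes name kallisto 0.42.1 and GRCh37. The authors tested gene-level estimated counts with edgeR, which needs counts that TPM do not hold, so limma was used here in its place.

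Transcripts were matched by identifier to GENCODE 44 lifted to GRCh37, 151453 of 180253 in all, and TPM were summed per gene. Alternatives (pseudocount, filter, scaling, threshold, block and set of libraries in the fit) were run beside leaving out each library. Genes were kept where the mean reached 1 TPM in either group, and log2(TPM + 0.5) was fitted with limma 3.58.1 (R 4.3.3) with an intensity trend over all 16 libraries and 8 group terms, which leaves 8 residual degrees of freedom. Calls needed a Benjamini-Hochberg adjusted p under 0.01 and a change beyond 2-fold. Both replicates of a group were compared first, and none were the same library.

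Genes named are the most changed members of each gene group, up to 4 in each direction, all members of the pocket protein, p53 and G1 groups, the 10 largest rises and falls, the 10 called genes of highest level, the 4 largest differences between oxygen levels in each direction, the label checks and genes the study names. UAP1, SREBF1, SREBF2 and the cell type markers were added after their values were seen. The gene groups and tests were chosen with earlier results of these data known. Across the 25 groups, 651 of 724 genes were tested. Promoters were taken from RefSeq (GRCh38.p14) by symbol. Some genes that these rules name are not reported here. Depth per library is unknown.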

Additional observations from a re-analysis of the deposited data

Results flagged for a closer look

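For 79 of the genes named in the report, the step from immortalized to transformed cells differed between atmospheric and 3% oxygen by the test of the difference itself (limma, adjusted p under 0.01 and beyond 2-fold). Values are the log2 step in air minus that at 3% oxygen, so that a negative value stands for a lower step in air, and 33 were positive and 46 negative. The genes named were chosen in part for large changes or differences, so that their share says nothing beyond the choice.

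The largest negative differences were in inflammatory genes, at -9.49 for CSF3, -9.11 for CXCL8, -8.26 for IL1B, -7.28 for CSF2, -5.54 for SOD2 and -4.90 for IL24, with -1.40 for the interferon-induced GBP2. The replicates of transformed cells at 3% oxygen were far apart for several of these, with CSF3 at 2.13 and 43.1 TPM and CXCL8 at 191 and 1385 TPM. Hypoxia and metabolic genes followed, with STC1 at -5.20, ASS1 at -4.74, AKR1B1 at -4.36, NDRG1 at -4.05, VEGFA at -2.67, EPAS1 at -1.46, SCD at -2.81, INSIG1 at -2.38 and SREBF2 at -1.92.

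Proteases of the matrix and of lysosomes differed as well, with MMP3 at -4.50, MMP1 at -2.29, MMP2 at -1.91, MMP14 at -1.60, CTSK at -3.97, CTSS at -3.87, CTSB at -2.33 and CTSL at -1.16. In the p53 circuit and among inhibitors the differences were -3.13 for GDF15, -2.85 for BBC3, -2.39 for SESN2, -2.29 for CDKN1C, -2.14 for TP53INP1, -2.01 for CCNG1, -1.60 for ZMAT3, -1.57 for TNFRSF10B and -1.37 for EDA2R. Matrix proteins and receptors gave -2.21 for MFAP4, -2.05 for DCN, -2.04 for LOXL4, -1.79 for COL14A1, -1.63 for DDR2, -1.60 for PDGFRA, -1.46 for PDGFRB and -1.56 for BMP2. Of the remaining genes, FTH1 was at -2.30, TPT1 at -1.89, TMSB4X at -1.74, RBL2 at -1.21 and FTL at -1.18.

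Positive differences were largest for ID3 (7.14), ID1 (6.53) and ACTG2 (4.91), with 1.58 for ID2. Matrix genes on this side were COL1A1 at 2.62, COL4A1 at 2.38, TGFBI at 1.85, MMP16 at 1.79 and COL5A2 at 1.06. Cell cycle genes were MCM10 at 1.93, LMNB1 at 1.78, CEP83 at 1.82, CDCA8 at 1.64, RAD51C at 1.55, E2F8 at 1.50, ANLN at 1.46, RAD54L at 1.46, GINS2 at 1.45, CDC25A at 1.38, MYBL2 at 1.31, CCNB1 at 1.22, FOXM1 at 1.17, AURKB at 1.07 and LIN9 at 1.04. The others were NME1 at 2.24, APOBEC3B at 1.89, UAP1 at 1.72, TUBA1B at 1.69, KRT18 at 1.51, HSPA8 at 1.34 and BAK1 at 1.11. POSTN (3.21) and GPAT2 (1.57) were listed at 0 in both immortalized libraries in air, so their values depend on the pseudocount. BMP2, COL14A1 and DCN lost the call of the difference with a pseudocount of 0.1, and CDKN1C was below 1 TPM in both groups in air.

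With 1 of the 8 libraries behind the difference left out, 20 of the 79 genes lost this call under at least 1 choice of library, namely AURKB, BAK1, BBC3, BMP2, CEP83, COL1A1, COL5A2, CSF3, CTSS, DCN, EDA2R, FOXM1, GBP2, GDF15, HSPA8, LIN9, MMP1, PDGFRA, RAD54L and RBL2.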

How the results depend on the processing

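The step in air was recomputed under 19 other settings, in which the number of called genes lay between 2181 and 3316. Leaving out each of the 4 libraries gave 2513 to 2748 genes, 1322 to 1538 rises and 1166 to 1210 falls. The number of rises moved by over 1.5 times after median-ratio rescaling, to 1066, and 1065 rises were called under all 3 scalings at once, a setting added after seeing the data. The difference between the oxygen levels was called for 987 to 1452 genes with 1 library left out, with 483 to 777 positive and 495 to 675 negative, and 474 were positive after median-ratio rescaling. The count was 987 without replicate b of immortalized cells at 3% oxygen and 992 without replicate b of transformed cells in air. The cause was not tested.

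The replicate letters were not shown to pair the plates, since the deviations of same-lettered libraries had a correlation of -0.17 across 12387 genes. With the letter as a replicate block, 2968 genes were called in the fit of all libraries and 2181 in that of the 4 libraries, and for the difference 1415 and 1433. A crossed pairing, also added after seeing the data, gave 2876 genes.

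Of 196 tested genes named in the report, 151 kept direction and call under all settings. Median-ratio rescaling ended the calls of ANLN, ATP5F1C, CCND3, CCNE1, COL5A2, E2F2, ENO1, FOXM1, MMP16, PLOD2, RBL1 and TUBA1B, and quantile normalization those of CCND3, PLOD2 and RBL1. With the replicate block in the 4 libraries, BBC3, CCNE1, E2F2, E2F5, ID1 (limma, adjusted p = 0.0150), MMP16, PHLDA3, RBL1, SUSD6 (0.0117) and TK1 (0.0140) lost theirs. Apart from leaving out a library, the other settings ended 1 or more of the calls of BBC3, CCND3, E2F2, E2F5, MMP11, MMP16, PHLDA3 and SREBF1. For the difference between oxygen levels, calls ended after median-ratio rescaling for AURKB, BAK1, COL5A2, HSPA8 and LIN9, after quantile normalization for AURKB, COL5A2, FOXM1 and FTL, without a filter for COL1A1, CTSS, DCN, GDF15 and RBL2, and with the replicate block in the libraries compared for BBC3, BMP2, CDKN1C, CEP83, COL14A1, CTSS, MMP1 and PDGFRA. The sign of the change turned only for genes that were not called. Under median-ratio rescaling, the log2 fold change of CDKN2D was -0.16, LIN54 was -0.035, TIGAR was -0.15. Under quantile normalization, the log2 fold change of CDKN2D was -0.072, TIGAR was -0.076. With 1 library left out, it ranged for AEN from -0.16 to 0.052, for CDKN1B from -0.070 to 0.019, for CDKN2D from -0.091 to 0.22, for COL1A1 from -0.43 to 0.31, for FDXR from -0.89 to 0.00069, for PIDD1 from -0.021 to 0.63, for RBL2 from -0.22 to 0.033, for TFDP2 from -1.68 to 1.30. With 2 libraries in each group, the smallest two-sided p of an exact permutation test is 0.333. TPM gives no read depth, so counting error could not be set beside any value.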

Other observations

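Chromosome 20 held the highest share of rises of any chromosome. Of its 333 tested protein-coding genes 27.0% rose and 8.11% fell, against 13.2% and 11.1% of all genes, and their median log2 fold change was 0.50 in air and 0.44 at 3% oxygen. Among the genes named above as rises, MYBL2, E2F1, RBL1, AURKA, GINS1, ID1 and EEF1A2 lie on it, and so does BMP2, which fell. The part of the chromosome in their changes was not tested, and no copy number was measured here.

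Outside protein-coding genes, 44 of 279 tested long non-coding RNAs rose and 26 fell, shares near the 13.2% and 11.1% of protein-coding genes. MSC-AS1 was at 27.5 and 19.8 TPM in immortalized and 1.67 and 0.848 TPM in transformed cells, with a log2 fold change of -3.80 ± 0.34 (limma, adjusted p = 5.82e-06). ALOX12-AS1 was at 41.9 and 31.6 TPM against 17.2 and 15.0 TPM, with a log2 fold change of -1.15 ± 0.16 (limma, adjusted p = 0.000111). Both were chosen after their values were seen, and reads of an antisense RNA can overlap those of its neighbour.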
